A study of Rattus norvegicus with 2 samples.

Results

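The dystrophin-glycoprotein complex was followed here through 8 of its genes, Dmd, Utrn, Dag1, Sgca, Sgcb, Sgcd, Dtna and Sspn, in single cells of rat and rat-mouse chimeric skeletal muscle. The genes were chosen with earlier results of these data known, and their rows were found by name. Each of them matched 1 row of the 23373 rat genes and 1 row of the 25906 mouse genes, so that 8 genes of each species are described. Their levels were read in cell classes gated on marker genes, in 3 populations: SD rat cells, the chimera's rat cells and the chimera's mouse cells.

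The chimera was a rat grown from an SD rat morula that had received edited Dmd mdx; Pax7-nGFP mouse iPSCs, and the other animal was an SD rat that received no cells. The iPSCs came from a male line with the mdx mutation of dystrophin, heterozygous for the Pax7-nGFP reporter, in which CRISPR/Cas9 editing around the mutated exon restored the reading frame. The mouse cells thus stem from edited iPSCs, the rat cells of both animals carried rat Dmd, and the labels give neither age nor sex of the animals. Muscle from the whole body was digested with collagenase II and sorted for live cells on Calcein Violet. It was made into 1 droplet library per animal with a 3′ kit. Each unique molecular identifier (UMI) is read as 1 captured transcript and does not tell the edited from an unedited Dmd transcript. Whether introns were counted is not given, so a UMI of a long gene such as Dmd or Utrn need not be a transcript end.

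Dystrophin is a long rod under the membrane of muscle fibres that ties the actin cytoskeleton to a membrane complex, and through it to laminin outside the cell. Its loss causes Duchenne muscular dystrophy. Utrophin is a close relative of dystrophin, and dystroglycan is the laminin receptor of the complex. The sarcoglycans and sarcospan form a subcomplex in the membrane, and dystrobrevin binds dystrophin from the inside. The gene Dmd also has internal promoters, whose short products are made in other tissues, Schwann cells of peripheral nerve among them. Smooth muscle makes dystrophin too, and serum response factor acts on many smooth muscle genes through the CArG box.

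Upstream sequence from RefSeq (rat build GRCr8, which is not the build of the files) was available for 7 of the 8 genes, in 9 windows of 250 bases before a listed start; Dag1 had none. The window of Dmd with a CArG box is shown because the Dmd level was high in the smooth muscle gate. A stretch of Sgca with the E-box CAGCTG is shown because rat Sgca was highest in MP-like cells (myogenic progenitors) and low in fibroblast classes. The Dmd window, chrX:51205836-51206085 on the plus strand, lies within the listed span of the gene, before 1 of its 3 listed starts, and its capitals mark the CArG box. The Sgca stretch, chr10:80416119-80416148 on the minus strand, has the E-box in capitals.
Dmd: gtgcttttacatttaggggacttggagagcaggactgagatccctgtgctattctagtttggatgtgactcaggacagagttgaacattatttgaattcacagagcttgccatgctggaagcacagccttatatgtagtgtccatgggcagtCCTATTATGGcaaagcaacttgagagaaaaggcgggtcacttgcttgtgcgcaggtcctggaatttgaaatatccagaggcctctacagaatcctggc
Sgca: caaggctggcccCAGCTGctttgccacacc
A CArG box, searched on both strands, was in 501 of 33469 such windows of all rat genes (1.50%), and CAGCTG, which reads alike on both strands, in 4007 (12.0%). The other 2 Dmd windows held neither, the Dtna window held 2 E-boxes, and the windows of Utrn, Sgcb, Sgcd and Sspn held neither. A match describes these letters and no binding was measured.

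The chimera library held 13299 barcodes and 118872850 UMIs, and the SD rat library 10117 barcodes and 70957559 UMIs, of which 11730 and 8758 barcodes were kept after filters and removal of predicted doublets. Of the kept chimera barcodes, 8230 were rat (at most 20% of UMIs on mouse genes), 1847 mouse (at least 80%) and 1653 mixed, and 43 barcode sequences occurred in both libraries. Classes are gates on the share of UMIs on marker genes, so each is a range of a score and is written as X-like. Myogenic progenitor (MP)-like cells numbered 227 in the SD rat, 281 among chimera rat cells and 32 among chimera mouse cells, and 177, 180 and 16 barcodes lay near this gate, on either side of it. Myocyte-like barcodes, with at least 10% of UMIs on fibre genes, numbered 1605, 826 and 29, Schwann-like cells 96, 62 and 22, and smooth muscle-like cells 40 and 101 in the rat populations, with 1 mouse cell. Among MP-like cells, Pax7 was found in 58.6% of SD rat, 57.7% of chimera rat and 84.4% of chimera mouse cells, Myf5 in 54.2%, 51.2% and 43.8%, and Cdh15 in 78.0%, 77.6% and 50.0%. The mouse cells were thus highest in Pax7 and lowest in the other two. Myocyte markers reached the other classes as well: their median share in SD rat classes ran from 51.8 per 10000 UMIs in fibro-adipogenic progenitor (FAP)-like cells to 220.1 in pericyte-like cells, and in chimera rat classes from 23.7 to 70.5. With 1 library per animal no test between animals is possible, and every interval below is a 95% interval for counting error.

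**Figure D1:**
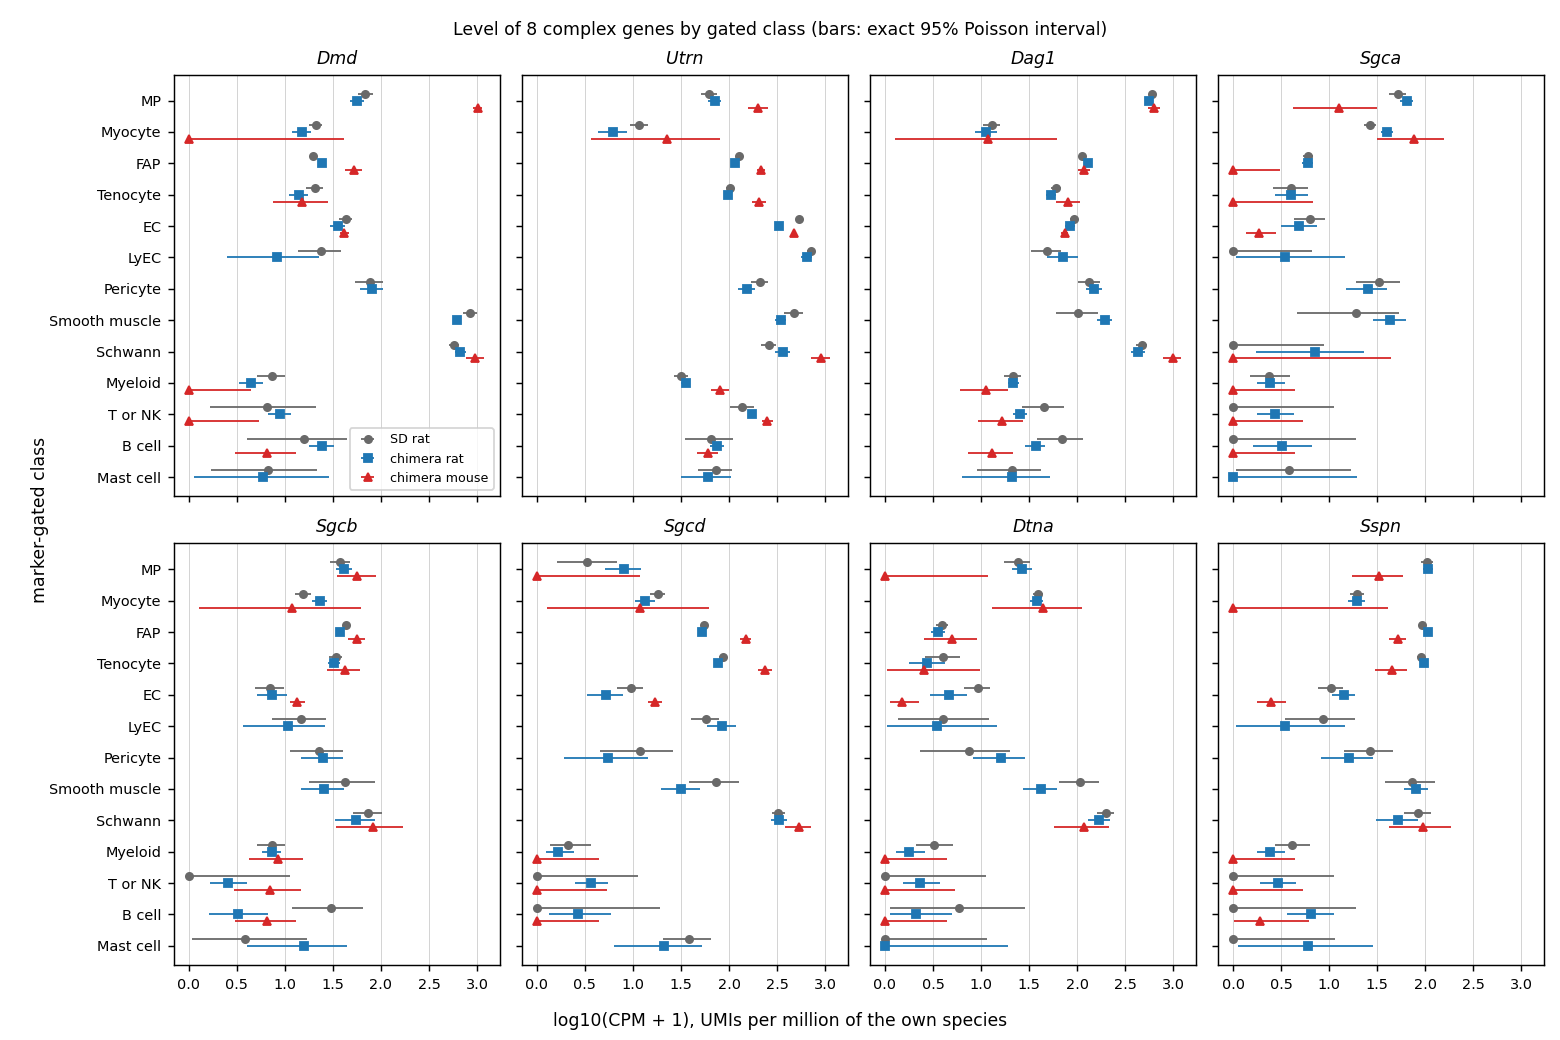
Level of each of the 8 genes as log10(CPM + 1) in each gated class (rows), where CPM are UMIs per 1e6 UMIs on genes of the cell's own species; black circles are SD rat, blue squares chimera rat and red triangles chimera mouse cells, and bars are exact 95% Poisson intervals. Dmd stands highest in the smooth muscle-like and Schwann-like rows of the rats, with mouse MP-like cells at 1018 CPM against 67.8 and 55.1 CPM in the rat populations.

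Dmd, which encodes dystrophin (ENSRNOG00000046366 in the rat rows, ENSMUSG00000045103 in the mouse rows), was highest outside the myogenic cells of the SD rat. Its level, in UMIs per 1e6 UMIs of the own species (CPM), was 851 CPM (143 UMIs, 717 to 1003) in smooth muscle-like cells and 577 CPM (271 UMIs, 510 to 650) in Schwann-like cells. It was 75.3 CPM in pericyte-like cells, 67.8 CPM (118 UMIs, 56.1 to 81.2) in MP-like cells, 42.0 CPM in endothelial cell (EC)-like cells and 19.9 CPM (132 UMIs, 16.6 to 23.6) in myocyte-like barcodes. The intervals of smooth muscle-like, Schwann-like and the next class did not overlap, whereas those of pericyte-like and MP-like cells did.

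The rat cells of the chimera held the same pair of classes on top, in the other order. Dmd was 667 CPM (582 to 761) in Schwann-like and 620 CPM (560 to 686) in smooth muscle-like cells, intervals that overlapped, and then 78.7 CPM in pericyte-like, 55.1 CPM (134 UMIs, 46.2 to 65.2) in MP-like and 13.9 CPM (65 UMIs, 10.7 to 17.7) in myocyte-like barcodes. T or NK-like cells, which are not known for dystrophin, give the background: 5.58 CPM from 2 UMIs in the SD rat and 7.86 CPM from 41 UMIs in the chimera. After each cell was thinned to 1000 UMIs, Dmd was found in 39.5% of 38 SD rat and 33.0% of 100 chimera rat smooth muscle-like cells, in 34.9% of 83 and 35.0% of 60 Schwann-like cells, and in 0 of 51 and 0.479% of 626 T or NK-like cells (0 of 51 allows a share of up to 5.88%, which is 3 counts of the total). Without thinning the T or NK-like shares were 3.92% and 3.67%, and those of smooth muscle-like cells 62.5% and 78.2%.

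The mouse cells of the chimera differed from the rat cells in where Dmd stood highest. Mouse Dmd was 1018 CPM (346 UMIs, 914 to 1132) in the 32 MP-like cells and 962 CPM (82 UMIs, 765 to 1193) in the 22 Schwann-like cells, intervals that overlapped. It was 51.0 CPM in FAP-like, 40.5 CPM in EC-like and 14.1 CPM in tenocyte-like cells, and the 29 myocyte-like, 91 myeloid-like and 86 T or NK-like mouse cells held 0 Dmd UMIs. For the myocyte-like barcodes that 0 allows up to 32.6 CPM (3 counts), a limit above the 13.9 CPM of the rat myocyte-like barcodes, so a difference was not detectable at this depth.

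In mouse MP-like cells the Dmd UMIs were spread over most cells but weighted to a few. A Dmd UMI was found in 27 of 32 mouse cells (84.4%), 59 of 227 in the SD rat (26.0%) and 67 of 281 host rat cells of the chimera (23.8%), at median depths of 9974, 6711 and 8397 UMIs. The highest mouse cell held 101 of the 346 UMIs and the 4 highest held 67.6%, whereas the median mouse cell held 3 and the median rat cell 0. At least 5 Dmd UMIs were found in 12 mouse cells (37.5%), 2 SD rat cells (0.881%) and 5 chimera rat cells (1.78%). Thinned to 1000 UMIs, the shares were 34.4% in mouse, 8.37% in SD rat and 4.98% in chimera rat MP-like cells. The rat row of Dmd had 0 UMIs in these mouse cells.

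**Figure D2:**
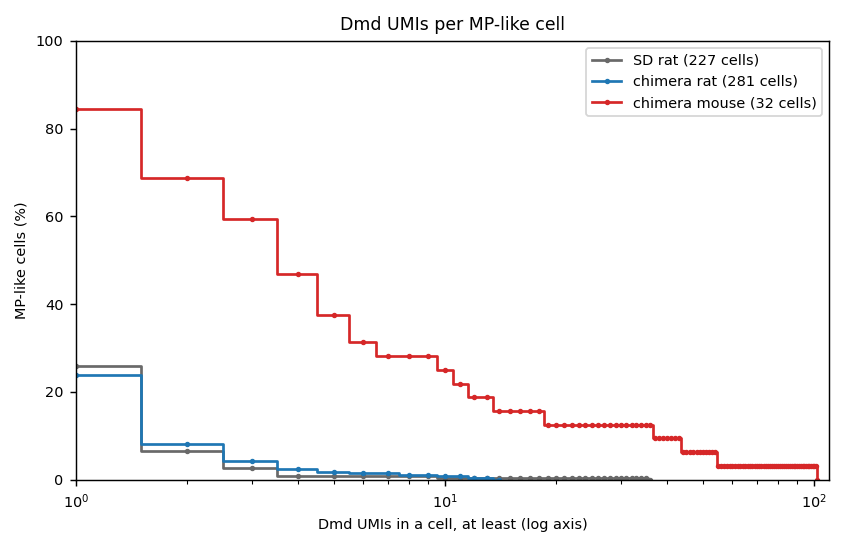
Share of MP-like cells (y axis, percent) with at least the number of Dmd UMIs on the x axis (log axis), for 227 SD rat, 281 chimera rat and 32 chimera mouse cells. The mouse line starts at 84.4% and runs to a cell with 101 UMIs, while the rat lines start at 26.0% and 23.8% and end at cells with 35 and 13 UMIs.

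Within the MP gate, mouse Dmd was high in cells with and without Myog, a marker of committed myoblasts. The 9 mouse cells with a Myog UMI held 874 CPM (730 to 1039) and the 23 without held 1129 CPM (984 to 1290). In the chimera rat the values were 37.5 CPM (26.8 to 51.0) in 93 cells and 68.9 CPM (55.7 to 84.3) in 188 cells, and in the SD rat 108 CPM (79.4 to 145) in 35 cells and 54.7 CPM (42.8 to 68.9) in 192 cells. In both chimera populations the cells without Myog had the higher value and in the SD rat the lower. The highest SD rat MP-like cell alone held 35 of the 118 Dmd UMIs of this class. It was among the cells with Myog, where 4 cells held all 46 Dmd UMIs. The share of cells with a Dmd UMI was lower with Myog in each population. With and without Myog it was 11.4% and 28.65% in the SD rat, 15.05% and 28.2% in the chimera rat and 66.7% and 91.3% in mouse cells.

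Utrn (ENSRNOG00000011058, ENSMUSG00000019820), which encodes utrophin, was highest in endothelial classes of the SD rat. SD rat lymphatic endothelial cell (LyEC)-like cells held 704 CPM (642 to 771) and EC-like cells 532 CPM (510 to 555), followed by smooth muscle-like cells at 470 CPM (372 to 586), Schwann-like cells at 260 CPM and pericyte-like cells at 209 CPM. MP-like cells held 61.5 CPM (50.4 to 74.3) and myocyte-like barcodes 10.5 CPM (8.22 to 13.3). The interval of EC-like cells overlapped that of smooth muscle-like cells and not that of LyEC-like cells.

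In chimera rat cells Utrn was 640 CPM in LyEC-like, 361 CPM in Schwann-like, 345 CPM in smooth muscle-like and 331 CPM (313 to 351) in EC-like cells, and 5.14 CPM in myocyte-like barcodes. The EC-like value was lower than in the SD rat by 0.68 on the log2 scale (-0.68, -0.79 to -0.58), short of 2-fold. Mouse cells held 903 CPM (713 to 1128) in Schwann-like, 477 CPM in EC-like, 249 CPM in T or NK-like and 200 CPM (155 to 254) in MP-like cells. Unlike Dmd, Utrn was not low in lymphoid cells, with 137 CPM in SD rat and 174 CPM in chimera rat T or NK-like cells.

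Dag1 (ENSRNOG00000019400, ENSMUSG00000039952), which encodes both subunits of dystroglycan, was highest in MP-like cells of the rats. It was 604 CPM (568 to 642) in the SD rat, 561 CPM (532 to 592) in chimera rat and 630 CPM (548 to 720) in chimera mouse MP-like cells, and a UMI was found in 92.1%, 95.4% and 93.8% of these cells. These 3 levels lay close together, and the mouse level exceeded the chimera rat level by 0.17 on the log2 scale (-0.05 to 0.38). Schwann-like cells came next at 468 CPM (409 to 535) in the SD rat and 431 CPM (363 to 508) in the chimera rat, and stood at 985 CPM (786 to 1219) in mouse cells. Pericyte-like cells held 133 and 150 CPM, and FAP-like cells 113, 128 and 117 CPM in the 3 populations. Myocyte-like barcodes held 11.9, 10.3 and 10.9 CPM, the last from 1 UMI.

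The sarcoglycans did not share a class. Sgca (ENSRNOG00000003998, ENSMUSG00000001508), the gene of alpha-sarcoglycan, which is made in striated muscle, was 50.6 CPM (40.6 to 62.3) in MP-like cells, 32.3 CPM in pericyte-like cells and 25.9 CPM (22.2 to 30.1) in myocyte-like barcodes of the SD rat, and 63.3 CPM, 24.2 CPM and 38.7 CPM in those of the chimera rat. FAP-like cells held 5.05 and 4.97 CPM, and SD rat Schwann-like and T or NK-like cells 0 UMIs. Mouse Sgca had 7 UMIs (76.1 CPM, 30.6 to 157) in myocyte-like and 4 UMIs (11.8 CPM, 3.21 to 30.2) in MP-like cells. The intervals of the leading SD rat classes overlapped from MP-like through pericyte-like to myocyte-like.

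Sgcb (ENSRNOG00000002135, ENSMUSG00000029156), beta-sarcoglycan, was spread over stromal and myogenic classes. In the SD rat it was 72.4 CPM (50.1 to 101) in Schwann-like, 42.1 CPM in FAP-like, 36.8 CPM in MP-like and 33.0 CPM in tenocyte-like cells, against 14.5 CPM in myocyte-like barcodes and 6.03 CPM in EC-like cells. The chimera rat values in the first 4 of these classes were 54.6, 36.8, 40.3 and 31.5 CPM, and 6.43 CPM in EC-like cells.

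Sgcd (ENSRNOG00000002372, ENSMUSG00000020354), delta-sarcoglycan, was high in Schwann-like cells and in fibroblast classes and near 0 in MP-like cells. Schwann-like cells held 326 CPM (276 to 382) in the SD rat, 334 CPM (274 to 402) in the chimera rat and 528 CPM (385 to 706) in chimera mouse cells. Tenocyte-like cells held 85.3, 75.1 and 237 CPM and FAP-like cells 53.7, 50.8 and 147.5 CPM. MP-like cells held 4 UMIs (2.30 CPM) in the SD rat, 17 UMIs (6.99 CPM) in the chimera rat and 0 in the mouse cells, whose limit at 0 is 8.83 CPM (3 counts).

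Dtna (ENSRNOG00000016671, ENSMUSG00000024302), alpha-dystrobrevin, was highest in Schwann-like cells, at 198 CPM (160 to 243) in the SD rat and 170 CPM (128 to 221) in the chimera rat. Smooth muscle-like cells held 107 CPM from 18 UMIs and 40.7 CPM from 25 UMIs. It was 1 of 2 members, with Sgca, whose myocyte-like level (38.2 CPM in the SD rat, 36.8 CPM in the chimera rat) lay above that of EC-like and FAP-like cells by more than 2-fold in both rat populations, and FAP-like cells held 2.88 and 2.57 CPM. Mouse MP-like cells held 0 Dtna UMIs against 63 UMIs (25.9 CPM) in chimera rat MP-like cells, which is at least 2.93-fold lower when set against the limit of 8.83 CPM, and the counting interval of the log2 ratio reached up to -1.21.

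Sspn (ENSRNOG00000001807, ENSMUSG00000030255), sarcospan, was shared by MP-like and fibroblast classes. It was 104 CPM in MP-like, 91.9 CPM in FAP-like and 89.9 CPM in tenocyte-like SD rat cells, and 107, 105 and 96.1 CPM in the chimera rat, and the SD rat intervals overlapped. Mouse values were lower, at 32.4 CPM (16.2 to 57.9), 51.0 CPM (41.1 to 62.7) and 44.0 CPM (29.2 to 63.6). Myocyte-like barcodes held 18.5 and 18.4 CPM in the rat populations.

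Levels varied with the share of myocyte marker UMIs in a barcode, among myocyte-like barcodes and those of no class. Kept barcodes of the myocyte gate or of no class were put in bins of that share. The bins below 10% held only barcodes of no class, and the bins from 10% up only myocyte-like barcodes. In the SD rat the median depth was 827 UMIs in the bin of 3 to 10% and 2038 UMIs in that of 10 to 30%. In the SD rat, Dmd was 39.8 CPM below 1%, 84.2 CPM from 1 to 3%, 412 CPM (355 to 475) from 3 to 10%, 60.6 CPM from 10 to 30% and 7.46 CPM (5.28 to 10.3) above 30%. The peak rested on few barcodes, because the 5 highest of 391 held 127 of the 188 UMIs of the middle bin. The chimera rat had the same order of the 3 upper bins, at 141 CPM (77.03 to 236), 23.8 CPM and 11.6 CPM (8.43 to 15.6), the first 2 below and the last above the SD rat value. Its 141 CPM rested on 14 UMIs in 41 barcodes, of which 1 barcode held 9. Sgca had no such peak in the middle bin, where it was 6.58 CPM from 3 UMIs in the SD rat and 20.1 CPM from 2 UMIs in the chimera rat. Above 30% the animals differed: SD rat Sgca went from 43.8 CPM (34.0 to 55.6) at 10 to 30% to 20.4 CPM (16.7 to 24.8), whereas chimera rat Sgca stood at 38.6 CPM (26.7 to 53.9) and 38.8 CPM (32.8 to 45.6).

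Fibre markers fill the denominator in these barcodes, so the levels were also computed over the UMIs outside the marker list. Dmd of the SD rat was then 438 CPM in the middle bin, 79.4 CPM from 10 to 30% and 11.7 CPM above 30%, and the order was kept. Whole adult fibres are too large for droplets, and what share of a fibre the myocyte-like barcodes hold was not tested.

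**Figure D3:**
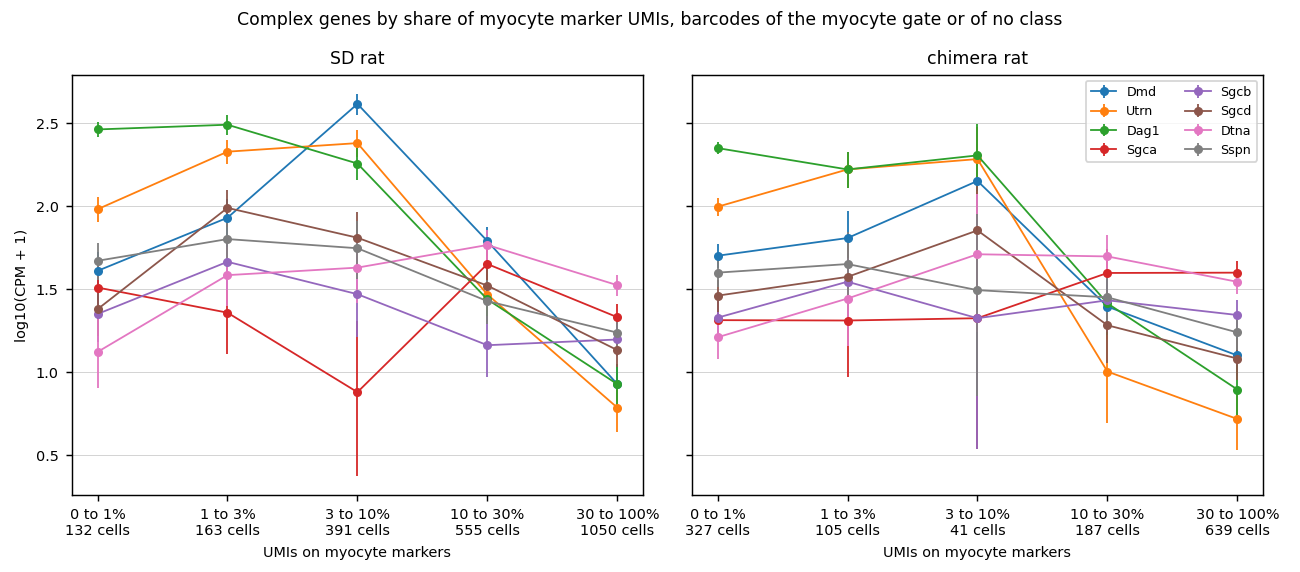
Level of each of the 8 genes as log10(CPM + 1) against the share of UMIs on myocyte markers (x axis, 5 bins with their number of barcodes), in SD rat (left) and chimera rat (right) barcodes of the myocyte gate or of no class; bars are exact 95% Poisson intervals. Dmd of the SD rat peaks at 412 CPM in the bin of 3 to 10%, which holds barcodes of no class, and stands at 7.46 CPM above 30%. Sgca in the 2 upper bins is 43.8 and 20.4 CPM in the SD rat and 38.6 and 38.8 CPM in the chimera rat.

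The UMIs of Dmd lay to an unusual extent in barcodes that the filters set aside. Gated cells held 56.8% of Dmd UMIs in the SD rat and 53.9% in the chimera (rat and mouse rows together), against 85.2% and 72.5% of the UMIs of all genes. Barcodes with over 20% mitochondrial UMIs held 24.6% and 19.9% of Dmd UMIs (729 and 1171 UMIs), against 3.59% and 3.20% of all UMIs. Dtna followed with 7.55% and 12.9%, and the other members had 1.07% to 5.04% there.

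Most of these Dmd UMIs passed the smooth muscle gate. In barcodes over the limit, 119 SD rat and 113 chimera rat smooth muscle-like barcodes held 509 and 692 Dmd UMIs, equal to 1493 CPM (1366 to 1629) and 1649 CPM (1528 to 1776), and a UMI was found in 70.6% and 79.6% of them. Utrn there was 443 and 405 CPM and Dag1 117 and 162 CPM, with intervals that overlapped those below the limit, whereas the Dmd intervals lay above. A Dmd level of the smooth muscle gate computed without any mitochondrial limit was 1281 CPM in the SD rat and 1038 CPM in the chimera rat (an alternative chosen after the data were seen).

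**Figure D4:**
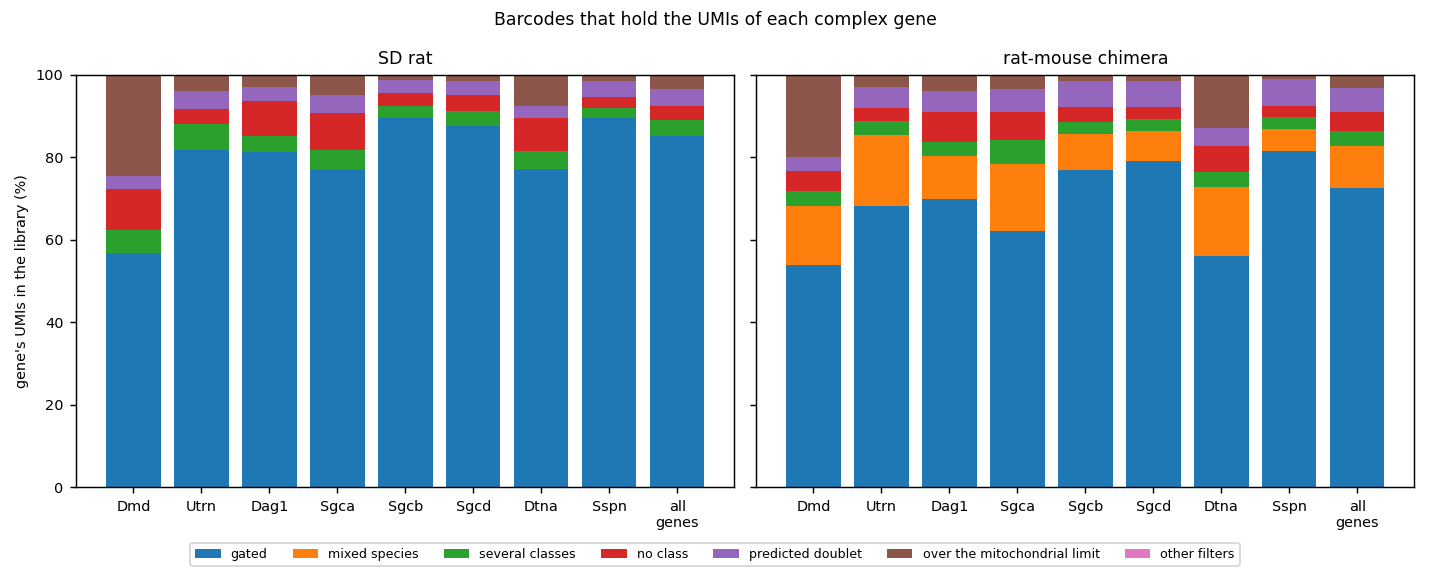
Share of the UMIs of each gene and of all genes (y axis, percent of the gene's UMIs in the library) that lay in gated cells, in mixed-species barcodes, in barcodes of several classes or of no class, in predicted doublets and in barcodes over the mitochondrial limit, for the SD rat (left) and the chimera (right). For Dmd the part over the limit is 24.6% and 19.9%, for all genes 3.59% and 3.20%.

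Host cells of the chimera were set against SD rat cells of the same class, to ask whether the rat's own cells carried different levels of the complex genes beside mouse cells. Of 104 pairs of a gene and a class, 76 had at least 20 UMIs over both libraries. Of these 72 were within 2-fold, 2 were higher in the chimera, where 3.79% of all gene values were, and 2 lower, where 5.41% were, and the median log2 ratio was -0.08. In MP-like cells 1 of 8 members was past 2-fold, where 5.09% of all 9256 genes were: Sgcd, higher by 1.28 on the log2 scale (-0.01 to 3.64) on 17 against 4 UMIs. Dmd in MP-like cells differed by -0.29 (-0.67 to 0.07).

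In smooth muscle-like cells 3 of 8 members were past 2-fold, where 23.1% of 4631 genes were. Sgca was higher by 1.20 (-0.46 to 3.61) on 26 against 3 UMIs, Sgcd lower by 1.18 (-1.18, -2.33 to -0.03) on 19 against 12 UMIs, and Dtna lower by 1.37 (-1.37, -2.33 to -0.44) on 25 against 18 UMIs. The highest cell held 10 of the 18 SD rat Dtna UMIs and 9 of the 19 chimera Sgcd UMIs. Without the top cell of each library Dtna stood at -0.47, and without a mitochondrial limit Sgcd stood at 0.02 and Dtna at 0.37. In the other 11 classes 0 of 60 tested values were past 2-fold. The share of all genes past it was 2.1% in FAP-like, 4.58% in tenocyte-like, 8.73% in myocyte-like, 7.58% in EC-like, 8.72% in LyEC-like and 9.06% in pericyte-like cells, and 11.2% in Schwann-like, 4.32% in myeloid-like, 20.2% in T or NK-like, 19.8% in B cell-like and 12.8% in mast cell-like cells.

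Some values short of 2-fold had intervals away from 0. In myocyte-like barcodes Sgca was higher by 0.56 (0.27 to 0.89) and Sgcb by 0.58 (0.19 to 1.03), and Utrn was lower (-0.91, -1.77 to -0.35), and all genes of that class had a median of -0.22. For Utrn the chimera rat barcodes of that class held 24 UMIs on the rat row and 12 on the mouse row, which the ratio leaves out. In FAP-like cells Dmd was higher by 0.32 (0.18 to 0.49) on 683 against 668 UMIs. It was lower in tenocyte-like (-0.54, -1.05 to -0.11), myocyte-like (-0.49, -0.97 to -0.08) and smooth muscle-like cells (-0.46, -0.74 to -0.17). Dmd was also lower in myeloid-like cells (-0.72, -1.67 to -0.09), at 3.42 against 6.30 CPM, near the T or NK-like background. These Dmd ratios leave out the mouse row, which in chimera rat myeloid-like cells held 29 UMIs beside 31 on the rat row. With mouse-row UMIs added over the same rat total, Dmd stood at 0.06 in myeloid-like and 0.69 in FAP-like cells. It was then -0.29 in tenocyte-like, -0.29 in myocyte-like and -0.40 in smooth muscle-like cells.

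The chimera library was mapped to both genomes and the SD rat library to the rat genome alone, and a rat transcript end that matches the mouse gene better can leave its rat row. In gated rat cells of the chimera, mouse rows held 17.2% (15.7 to 18.9) of the Dmd UMIs of both rows, 15.5% for Sgcd, 13.9% for Dtna and 8.74% for Utrn. For Sgcb the share was 2.10%, for Dag1 1.84%, for Sgca 0.684% and for Sspn 0.245%, against 11.2% for all genes. By class the Dmd share was 12.4% in MP-like, 4.03% in smooth muscle-like, 23.1% in FAP-like and 48.3% in myeloid-like cells, the last on 29 mouse and 31 rat UMIs. The source of these mouse UMIs was not tested. With both rows summed, in counts and totals alike, the Dmd difference of MP-like cells was -0.26.

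The comparison of mouse with rat cells inside the chimera library asks how the levels differ between donor and host cells that went through the same digestion, droplets and sequencing. The CPM of each species are over its own rows, and the gene models of the species differ, so species and annotation cannot be told apart. Of 53 tested values, 11 were higher in mouse (20.8%), where 16.4% of all gene values were, and 14 lower (26.4%), where 21.2% were, with a median log2 ratio of 0.22. The lower values include 6 with 0 mouse UMIs, counted by the pseudocount as they are for all genes. Set against the limit of 3 counts, 3 of these 6 remained past 2-fold (Sgca in FAP-like, Dtna in MP-like and Dmd in T or NK-like cells) and the median was 0.22 as well. Among the 47 values with UMIs on both sides 11 were higher, 8 lower and 28 within 2-fold, with a median of 0.46.

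In MP-like cells 5 of 7 members were past 2-fold, Dtna at 0 mouse UMIs included, where 37.2% of 7761 genes were. Dmd was higher by 4.18 on the log2 scale (3.92 to 4.51), rank 52 of the 7761 genes from the highest, and Utrn by 1.51 (1.09 to 1.93). Sgca was lower (-2.33, -4.32 to -1.04) on 4 against 154 UMIs and Sspn lower (-1.69, -2.74 to -0.86) on 11 against 260 UMIs. Dag1 and Sgcb were within 2-fold, at 0.17 and 0.46. Without the 4 cells with most Dmd UMIs in each species the Dmd difference was 3.29 (an alternative chosen after the data were seen).

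In Schwann-like cells Utrn was higher by 1.32 and Dag1 by 1.19, 2 of 7 members, where 36.5% of 3263 genes were past 2-fold in either direction. Dmd differed there by 0.53 (0.14 to 0.90). In FAP-like cells Dmd (1.09) and Sgcd (1.52) were higher and Sspn (-1.03) lower, and Sgca had 0 mouse UMIs against 145 of rat, 4 of 8, where 33.4% of all genes were past 2-fold, and in tenocyte-like cells Utrn (1.08) and Sgcd (1.65) were higher and Sspn (-1.11) lower, 3 of 6, where 34.6% were. In EC-like cells Sgcd (1.70) was higher and Sgca (-1.40) and Sspn (-2.51) lower, 3 of 7, where 34.2% were. Sgcd was thus higher and Sspn lower in mouse than in rat cells in each of these 3 classes. These ratios leave out UMIs on the rows of the other species. With those UMIs added over the same totals, Dmd in FAP-like cells was 0.73, Utrn in tenocyte-like cells 0.94 and Sgca in EC-like cells -0.78. These 3 values were then short of 2-fold, whereas Sgcd and Sspn stayed past it in each of the 3 classes.

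In the remaining classes the mouse counts were small. Utrn was higher in myeloid-like cells by 1.19 and Dmd had 0 mouse UMIs there, 2 of 4 members where 40.5% of genes were past 2-fold. In myocyte-like barcodes Utrn was higher by 1.89 on 2 mouse UMIs (-1.04 to 4.09), and Dmd and Sspn had 0 mouse UMIs with limits above the rat levels, 3 of 8 where 62.3% were. In B cell-like cells Dmd (-1.89) and Dag1 (-1.51) were lower, 2 of 3 where 33.4% were, and in T or NK-like cells 1 of 3 was past 2-fold, where 37.1% were: Dmd, with 0 mouse against 41 rat UMIs, at least 2.21-fold lower against the limit of 3 counts.

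**Figure D5:**
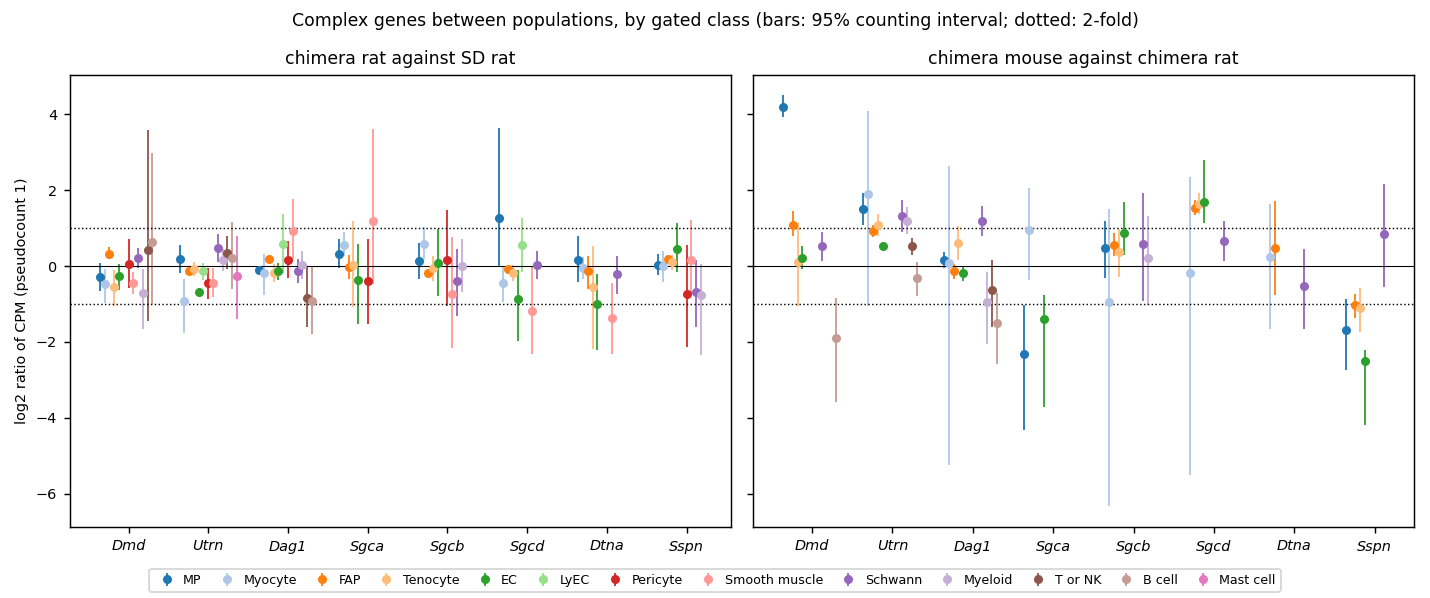
Log2 ratio of CPM (pseudocount 1; y axis) of each of the 8 genes (x axis) between chimera rat and SD rat cells (left) and between chimera mouse and chimera rat cells (right); colours are gated classes, bars 95% counting intervals and dotted lines 2-fold. On the left 72 of 76 values lie between the dotted lines, and on the right Dmd of MP-like cells lies at 4.18.

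Over the 12 SD rat classes with at least 50 cells, the genes whose log2 profile was most like that of Dmd were Mtss2 (Pearson's r 0.96), Slc35f1 (0.95) and Afap1l2 (0.95), among 10540 genes. For Dag1 the closest were Rusc1 (0.95), Hlcs (0.91) and Zfp189 (0.91), and for Sgca Cap2 (0.95), Rbm24 (0.93) and Ankrd1 (0.92). For Dtna it was Epdr1 (0.97) and for Sspn Tceal9 (0.96). Among the members the closest pairs were Dmd with Dtna (0.86) and Sgcb with Sspn (0.81). These are descriptions over 12 points from a single library, and the smooth muscle-like class, with 40 cells, was not among them.

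Other parts of the complex and its partners were read from a list of 27 genes, of which 25 were in the rat rows. The muscle caveolin Cav3 (314 CPM) was highest in myocyte-like barcodes of the SD rat, a class in which no member of the 8 was highest. Epsilon-sarcoglycan Sgce stood at 100.1 CPM (47 UMIs) in Schwann-like cells, with pericyte-like cells close behind at 98.95 CPM. The laminin chains Lama2 (1298 CPM) and Lamc1 (952 CPM) were highest in FAP-like cells. Between host and SD rat cells, 10 of 182 tested values of this list were higher (5.49%, against 3.79% of all gene values) and 12 lower (6.59%, against 5.41%), 4 of the higher ones at 0 in the SD rat, with a median of -0.26. In MP-like cells Cav3 was higher by 1.31 (0.86 to 1.86). Between mouse and rat cells 20 of 134 values were higher (14.9%, against 16.4% of all gene values) and 50 lower (37.3%, against 21.2%). At 0 mouse UMIs were 23 of the 134, and among the other 111 values 29 were lower.

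The genes that put the laminin-binding sugar on dystroglycan, a list of 18 with 17 in the rat rows, were compared in the same way. Between host and SD rat cells, 3 of 105 tested values were higher (2.86%, against 3.79% of all gene values) and 6 lower (5.71%, against 5.41%), with a median of -0.06. Between mouse and rat cells 24 of 91 were higher (26.4%, against 16.4%) and 20 lower (against 21.2%), and 10 of the 91 had 0 UMIs on 1 side.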

How the data were processed

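UMIs were measured in 1 library of 10x 3′ single-cell RNA sequencing per animal. The authors deposited a count of UMIs for each gene and barcode, not normalized, made with Cell Ranger 7.1.0 on the rat genes alone (SD rat) or on rat and mouse genes together (chimera), with barcodes already selected as cells; whether introns were counted is not given in the sources used here. Barcodes were kept with at least 500 UMIs, 200 genes and at most 20% mitochondrial UMIs, and doublets predicted by Scrublet (scanpy 1.11.5, expected rate 8%) were removed, 444 of 12174 chimera and 222 of 8980 SD rat barcodes. A class needed a minimum share of UMIs on its markers and at least 3 of them detected. The gates were set after their distributions had been seen, and the names are not those of the study. Barcodes that passed several gates (577 in the chimera, 300 in the SD rat) or none (906 and 686) were left out of classes.

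UMIs were summed per class, and levels are CPM over the UMIs of the own species. No correction for transcript length was made, as is usual for 3′ counts. If introns were counted, levels of long genes such as Dmd and Utrn may depend on length. Log2 ratios used a pseudocount of 1 CPM; their 95% intervals come from the exact binomial interval of the summed counts without it. Ratios were computed for genes with at least 20 UMIs over both groups in classes of at least 20 cells, and 2-fold was the limit for a call. Levels carry exact Poisson and shares exact Clopper-Pearson intervals, and the limit at 0 UMIs is 3 counts of the total, all for counting error only. Shares were also computed after thinning each cell to 1000 UMIs. Profiles were compared on log2(CPM + 10) over genes with at least 200 UMIs. Only the fold calls and the intervals of levels and ratios were tested on simulated data, for the genes of rat MP-like cells. The 8 members, the other gene lists and the comparisons were chosen with earlier results of these data known, and the named genes are all members, genes of the 2 further lists and the 3 most alike genes of each member; some genes are not reported here. Python 3.11.15, numpy 2.4.6 and scipy 1.17.1 were used.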

Additional observations from a re-analysis of the deposited data

Results flagged for a closer look

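Mixed-species barcodes, with between 20% and 80% of UMIs on mouse genes, entered no class of the comparisons. Mouse transcripts of members appeared there: 406 mixed barcodes passed the myocyte gate, and they held 30 mouse Sgca UMIs beside 51 of rat (37.0% mouse, 26.6 to 48.5) in 28 barcodes. They held 32 mouse Dtna UMIs beside 29 of rat (52.5%, 39.3 to 65.4) in 30 barcodes. In myocyte-like barcodes called rat, mouse rows held 2 Sgca UMIs beside 181 of rat (1.09%) and 26 Dtna UMIs beside 172 of rat (13.1%). Over all genes, 43.8% of the UMIs of the mixed barcodes were mouse. The other members had 3 to 12 mouse UMIs there. Whether a mixed barcode held 1 cell or more cannot be told apart here.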

How the results depend on the processing

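No paired analysis was possible because each group has 1 library. The class with the highest SD rat level was the same for 8 of 8 members in each alternative except a mitochondrial limit of 10%, where it was so for 7 (Dmd was then highest in Schwann-like cells, because under 20 smooth muscle-like cells were left). Between chimera rat and SD rat 4 values were past 2-fold. The count was 1 of 48 at species limits of 90% and 10% (0 of the 4), 7 of 77 with predicted doublets kept (4 of the 4) and 1 of 76 with a pseudocount of 10 CPM (1 of the 4). With no mitochondrial limit, an alternative added after the data were seen, Sgcd and Dtna of smooth muscle-like cells turned to 0.02 and 0.37. Between mouse and rat cells 19 of the 47 values with UMIs on both sides were past 2-fold. With both rows summed, in counts and totals alike, 22 of 52 were (15 of the 19). At 90% and 10% the mouse share of the members' UMIs in rat cells was 6.97% in place of 6.56%. The share of gene values past 2-fold was 9.21%, and 4.77% with a minimum of 100 UMIs, 20.3% with none beyond 1 UMI and 3.73% with the higher pseudocount. Dmd of MP-like cells stayed higher in mouse than in rat cells, from 3.29 to 4.61; between the animals it was -0.74 at 90% and 10% and 0.05 without the top cells. A myocyte gate of 3%, also added later, moved Dmd of SD rat myocyte-like barcodes from 19.9 to 45.1 CPM. The causes were not tested. Leaving out a replicate was not possible with 1 library per animal. Levels from under 20 UMIs, and the 22 to 40 cells of the smallest classes, limit the depth.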
